A study of Rattus norvegicus with 18 samples.

Results

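The miR-26 and miR-101 families were examined in small RNA of rat skeletal muscle, taking every counted arm (5p or 3p strand of a hairpin) of miR-26a, miR-26b, miR-101a and miR-101b. The name rule found 8 of the 909 entries of the count table, which held 763 known miRNAs and 146 predicted candidates. Of these, 7 reached 10 counts summed over all 18 libraries, and the 8th, rno-miR-101b-5p, had 4 counts in all. The samples were gastrocnemius muscles of male Brown Norway rats, 1 library per rat. Young AL rats (6 libraries) were fed ad libitum and killed at 6 months, old AL rats (6 libraries) were fed ad libitum to 28 months, and old CR rats (6 libraries) were killed at 28 months after caloric restriction to 55% of the control intake, started once the rats had matured. All rats came from 1 strain and 1 sex, were fed freely when young and then housed singly. There was no young CR group, so the old CR rats can be set only against rats that differ from them in feeding or in both feeding and age.

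Both families have been reported to repress Ezh2, the methyltransferase of the Polycomb repressive complex. That complex marks histone H3 and keeps muscle genes silent in undifferentiated myoblasts. A miRNA pairs with its targets mainly through its seed, bases 2 to 8 from the 5′ end, so that miRNAs with the same seed share most of their predicted targets. The rat miR-26 genes lie in introns of the small CTD phosphatase genes Ctdspl and Ctdsp1. rno-miR-101a-3p had a technical role in the study, which used it as the internal control of its RT-qPCR. NormFinder, run by the authors on young, old and old CR samples, had placed it among the most stable miRNAs. The RT-qPCR methods give another age for the old AL rats than the sequencing, so the animals may not all be the same. Ezh2 mRNA and protein were not measured in these libraries.

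The mature sequences of the 4 dominant arms are shown with the seed in capitals, because each family is read here through 2 nearly identical RNAs. They were taken from RefSeq (GRCr8), in which all 8 members had a mature sequence.

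rno-miR-26a-5p: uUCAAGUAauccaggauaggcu

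rno-miR-26b-5p: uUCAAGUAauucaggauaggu

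rno-miR-101a-3p: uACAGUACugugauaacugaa

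rno-miR-101b-3p: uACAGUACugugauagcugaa

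rno-miR-26a-5p (chr8:127633063-127633084, plus strand, within Ctdspl) and rno-miR-26b-5p (chr9:83425723-83425743, plus strand, within Ctdsp1) shared the seed UCAAGUA. Over the 21 bases they have in common they differed at 2 positions, C11U and C21U (first the base of miR-26a-5p, then the position from the 5′ end, then the base of miR-26b-5p). rno-miR-101a-3p (chr5:121081691-121081711, minus strand, within the uncharacterised gene LOC120102934) and rno-miR-101b-3p (chr1:236273982-236274002, plus strand, within Rcl1) shared the seed ACAGUAC and differed at 1 of 21 positions, A16G. The split within a pair is uncertain, because the assignment of reads that match both of its members is not given in the sources used here.

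No other counted miRNA with a RefSeq sequence had bases 2 to 7 of miR-26-5p, whereas the erythroid miRNA rno-miR-144-3p shared those bases with miR-101-3p and differed at base 8. rno-miR-935 shared bases 2 to 7 with the rare arm rno-miR-101a-5p and reached at most 0.113 CPM in any library. The 3 arms below, the seed again in capitals, are shown because they carry a different seed from their partner strand or, for miR-144-3p, nearly the seed of miR-101-3p.

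rno-miR-144-3p: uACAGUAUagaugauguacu

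rno-miR-26b-3p: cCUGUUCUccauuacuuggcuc

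rno-miR-101a-5p: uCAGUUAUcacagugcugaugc

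The libraries held 34940346 to 83110905 counts. The miR-1 family took 60.7 to 86.8% of them, and the factors of the TMM normalisation lay between 0.639 and 2.14. This share includes predicted candidate number 1, added because its counts matched a known miR-1 entry wherever it was counted. That candidate may not be a separate RNA. All 6 striated muscle miRNAs that were checked, among them rno-miR-1-3p and rno-miR-133a-3p, were counted in every library. Levels are TMM-normalised counts per 1000000 (CPM), summarised for the 6 rats of a group by the mean ± SD. Members are 21 or 22 nt long, so no length scaling was needed, but adapter ligation differs between sequences and a level compares libraries better than it compares miRNAs. In a whole muscle sample, fewer cells of a type and less RNA per cell cannot be told apart.

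One arm dominated. rno-miR-26a-5p, the most abundant of the set, averaged 14492 CPM over the 18 libraries, took 89.0% of all member counts and ranked 8 of 763 known miRNAs by level. rno-miR-26b-5p followed at 989.6 CPM (rank 36), rno-miR-101a-3p at 635 CPM (rank 43) and rno-miR-101b-3p at 177 CPM (rank 64). The other arms were rare. rno-miR-26b-3p averaged 0.888 CPM, rno-miR-101a-5p 0.370 CPM and rno-miR-26a-3p had 24 counts in all, or 1.49 per 1000000 counts of its 5p partner. The passenger strands of both families were therefore counted at a small fraction of the guide strands in every group.

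In young AL, rno-miR-26a-5p ranged from 12101 to 15162 CPM with a median of 13854. The old AL libraries spanned 10609 to 16715 CPM around a median of 14548. Those of old CR spanned 14047 to 18149 CPM around a median of 15808. The groups overlapped, although 3 of the 6 old CR libraries lay above every young AL library and none lay below the young AL range. For young AL, old AL and old CR the means were 13671 ± 1027, 13879 ± 2298 and 15925 ± 1794 CPM (SD, n = 6). The lowest library, old AL replicate 7, was also the one with the smallest miR-1 share (60.7%) and the largest TMM factor (2.14), and rno-miR-26a-5p took 2.27% of its unscaled counts, the largest share of any library. The part of this scaling in its place at the bottom was not tested.

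rno-miR-26b-5p, which has the same seed, was also highest on average in old CR. Young AL libraries ran from 639 to 1152 CPM (median 974), old AL libraries from 611 to 1128 (median 969.6), and old CR libraries from 876 to 1298 (median 1116). All 3 ranges overlapped. The means were 915 ± 186, 936 ± 185 and 1118 ± 144 CPM (SD, n = 6). Summed over both miR-26-5p arms, young AL had 14585 ± 1193 CPM, old AL 14815 ± 2451 and old CR 17043 ± 1787 (SD, n = 6).

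rno-miR-101a-3p varied more from rat to rat. Young AL libraries ran from 405 to 1025 CPM (median 512), old AL libraries from 353 to 833 (median 619), and old CR libraries from 268 to 987 (median 680.1). The highest library was young AL replicate 4 and the lowest old CR replicate 15. In the order young AL, old AL, old CR the means were 597 ± 225, 624 ± 166 and 685 ± 271 CPM (SD, n = 6). Over all 18 libraries the highest level was 3.82 times the lowest, which is 1.93 on the log2 scale, against 1.71 times for rno-miR-26a-5p. The contrast depended on the scaling. With library totals the 2 ranges were 3.52 and 2.50-fold, and with upper-quartile factors 3.60 and 2.15-fold. Within old CR alone the range was 3.68-fold. The next lowest library after old CR replicate 15 stood at 353 CPM.

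rno-miR-101b-3p followed its partner closely. Young AL libraries held 121 to 259 CPM of it (median 150.2), old AL libraries 98.7 to 220.2 (median 179.8), and old CR libraries 95.1 to 265 (median 186). The means were 167 ± 49.1, 174 ± 45.4 and 189.9 ± 56.9 CPM (SD, n = 6), and old CR replicate 15 was again the lowest of all libraries. That library was the lowest of the 18 for rno-miR-101a-5p as well, with 4 counts, but stood 11th from the bottom for rno-miR-26a-5p and 4th for rno-miR-26b-5p.

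**Figure D1:**
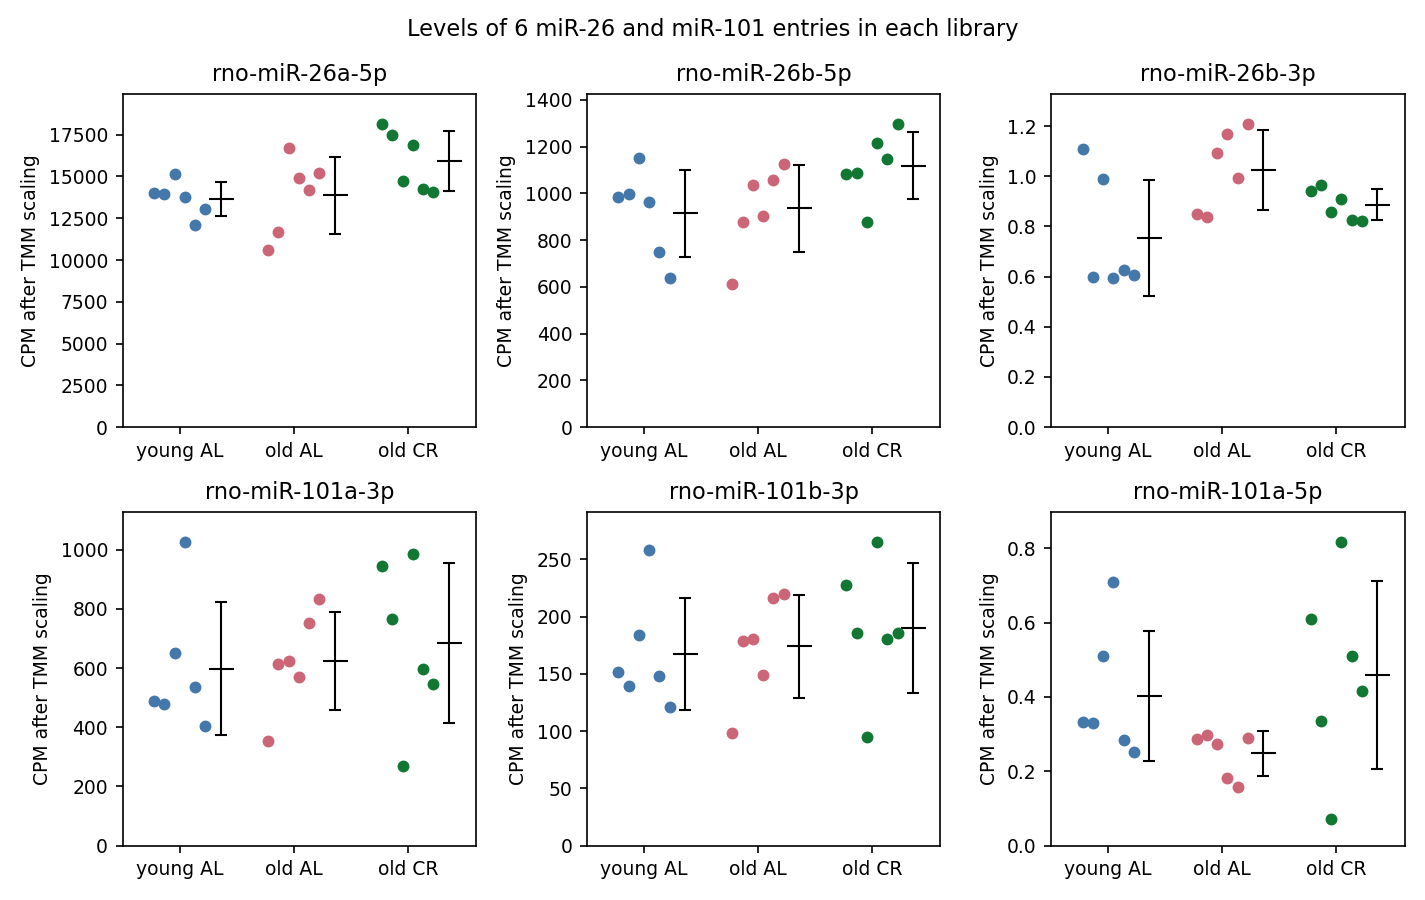
Level of 6 members in each library (CPM after TMM scaling, linear axes from 0). Points are libraries in order of replicate number within young AL, old AL and old CR, and the bar beside them is the mean ± SD (n = 6). The groups overlap for each of the 6 members, and rno-miR-101a-3p spreads from 268 CPM in an old CR library to 1025 CPM in a young AL library.

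The first comparison, old AL against young AL, asked what differed with age under free feeding. None of the 7 tested members passed the threshold of an adjusted p of at most 0.05 with a fold of at least 1.5 in edgeR's quasi-likelihood test, where 3.28% of the 732 tested entries did. At an unadjusted p under 0.05, 1 of the 7 was counted, rno-miR-101a-5p, against 23.4% of all entries. DESeq2 called 0 of the 7, against 12.2% of the entries to which it gave an adjusted p. The groups overlapped for all 7 members, where 3.55% of tested entries did not overlap. Over the 6 members with enough counts for a fold change (without rno-miR-26a-3p), the median log2 fold change was 0.06, and that of all tested entries 0.06.

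For the guide strands the estimates with age were close to 0. The log2 fold change of rno-miR-26a-5p was 0.03 (SE 0.145, edgeR adjusted p = 0.955) and that of rno-miR-26b-5p 0.04 (SE 0.186, edgeR adjusted p = 0.942). rno-miR-101a-3p stood at 0.08 (SE 0.247, edgeR adjusted p = 0.913) and rno-miR-101b-3p at 0.07 (SE 0.224, edgeR adjusted p = 0.914). The intervals differ in what they allow. As folds, the 95% interval was 0.820 to 1.27 for rno-miR-26a-5p, which leaves out a 1.5-fold rise, and 0.729 to 1.54 for rno-miR-101a-3p, which does not.

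The passenger strands had estimates further from 0, on few counts. rno-miR-101a-5p had 0.403 ± 0.174 CPM in young AL and 0.248 ± 0.0612 in old AL (SD, n = 6), from 17 to 31 and from 7 to 30 counts a library. Its log2 fold change was -0.68 (SE 0.296, edgeR adjusted p = 0.192), and 2 of the 6 old AL libraries lay below every young AL library. rno-miR-26b-3p had 0.754 ± 0.231 CPM in young AL and 1.02 ± 0.159 in old AL, a log2 fold change of 0.44 (SE 0.231, edgeR adjusted p = 0.269). rno-miR-26a-3p had 2 counts over the young AL libraries, 11 over the old AL and 11 over the old CR libraries, with at most 4 in any library, which is too few to give a fold change.

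Old CR against young AL combined age with restriction. Again 0 of the 7 tested members were called by edgeR, while 9.32% of the 730 tested entries were. None of the 7 reached an unadjusted p under 0.05, which 25.5% of entries did, and DESeq2 called 0 of 7 against 16.2%. No member separated the groups, as 5.75% of entries did. The estimates of the 6 members without rno-miR-26a-3p were all above 0, with a median log2 fold change of 0.20 beside 0.08 over all tested entries.

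The largest of the guide-strand estimates in that comparison belonged to miR-26. rno-miR-26b-5p had a log2 fold change of 0.29 (SE 0.153, edgeR adjusted p = 0.261) and rno-miR-26a-5p one of 0.22 (SE 0.102, edgeR adjusted p = 0.203). In DESeq2 rno-miR-26a-5p had an adjusted p of 0.0574, the nearest any member came to the threshold, at a size under the fold limit. The 95% interval of rno-miR-26a-5p in edgeR, 0.996 to 1.35-fold, leaves out a 1.5-fold rise. rno-miR-101a-3p stood at 0.19 (SE 0.312, edgeR adjusted p = 0.799) with an interval of 0.715 to 1.83-fold, and rno-miR-101b-3p at 0.18 (SE 0.243, edgeR adjusted p = 0.751).

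Old CR against old AL asked what differed with restriction at the same age. edgeR called 0 of the 7 tested members and 0.272% of the 736 tested entries. None of the 7 had an unadjusted p under 0.05, against 12.0% of entries. DESeq2 called 0 of the 6 members to which it gave an adjusted p, against 3.97% of entries. The groups overlapped for all 7 members, while 0.543% of tested entries did not overlap. The median log2 fold change of the same 6 members was 0.17, and that of all tested entries 0.01.

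The miR-26 guide strands were again the higher ones in old CR without passing the test. Here rno-miR-26a-5p had a log2 fold change of 0.20 (SE 0.135, edgeR adjusted p = 0.557) and rno-miR-26b-5p one of 0.26 (SE 0.155, edgeR adjusted p = 0.503), and for each of them 3 of 6 old CR libraries lay above every old AL library. rno-miR-101a-3p differed by 0.14 (SE 0.297, edgeR adjusted p = 0.924; 0.704 to 1.73-fold). The estimate furthest from 0 was that of rno-miR-101a-5p at 0.89 (SE 0.439, edgeR adjusted p = 0.414). Its level was 0.459 ± 0.252 CPM in old CR (SD, n = 6), with 5 of 6 libraries above every old AL library and old CR replicate 15, at 0.0729 CPM, below all of them.

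**Figure D2:**
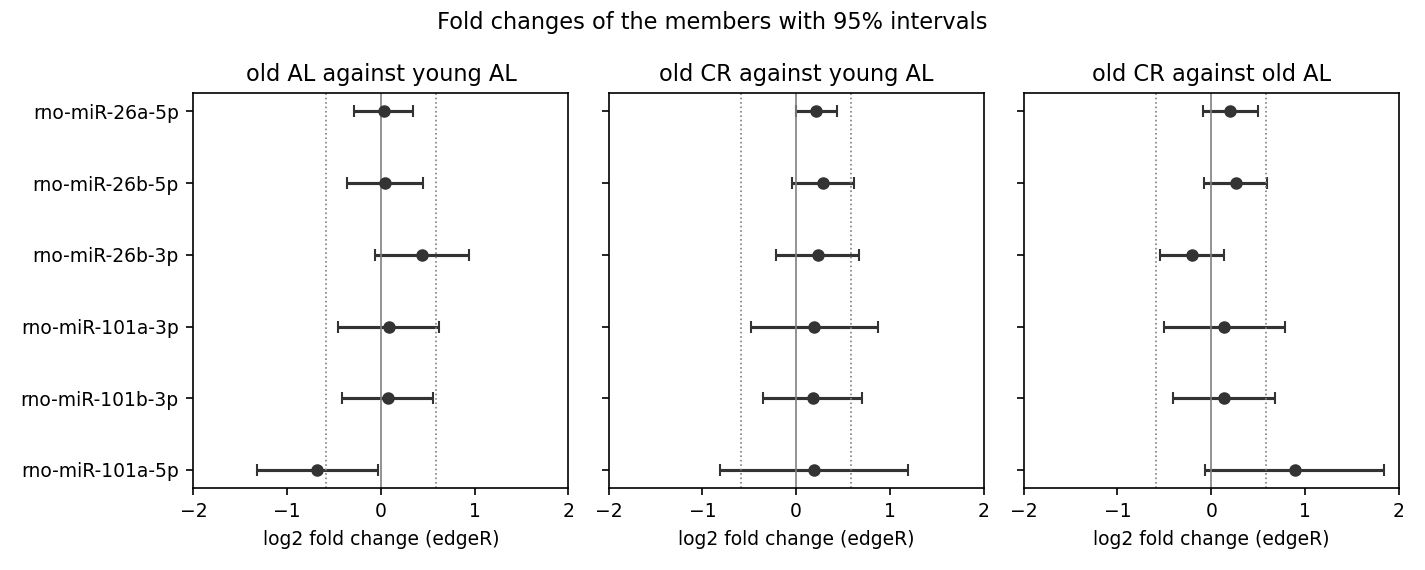
log2 fold change of 6 members in the 3 pairwise comparisons, from edgeR. Points are estimates, bars their 95% intervals, and dotted lines a 1.5-fold change in either direction. The intervals of rno-miR-26a-5p stay inside the dotted lines in each comparison, whereas those of rno-miR-101a-3p cross the upper one in each.

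Ratios between members within a library do not depend on how libraries are scaled, and 4 of them were compared between groups with two-sided exact permutation tests over all arrangements of 6 against 6 libraries, 12 tests in all. The lowest adjusted p was 0.0779, so no ratio passed the correction.

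The 2 miR-101-3p arms kept a narrow ratio. rno-miR-101b-3p had 24.0 to 35.4 counts per 100 counts of rno-miR-101a-3p, and the medians of young AL, old AL and old CR were 28.7, 28.4 and 28.6. Both the lowest and the highest ratio came from old CR, where the SD of the log2 ratio was 0.240 against 0.105 in young AL and 0.0673 in old AL. None of the 3 group differences passed its test (exact permutation p of 0.545 to 0.892 and adjusted p = 0.892 for each). rno-miR-26b-5p had 4.90 to 9.24 counts per 100 of rno-miR-26a-5p, with group medians of 7.02, 6.81 and 6.71 in the same order. Its group differences in log2 ratio, 0.03 to 0.09, did not pass either (exact permutation p of 0.537 to 0.812, adjusted p = 0.892).

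Between the families the ratio was loose. Per count of rno-miR-101a-3p, young AL libraries had 13.4 to 32.2 counts of rno-miR-26a-5p (median 26.02), old AL libraries 18.2 to 30.1 (median 22.6), and old CR libraries 17.1 to 54.8 (median 23.4). The 54.8 of old CR replicate 15 stood alone, since every other library was at or below 32.2. Group differences were small beside this spread (exact permutation p of 0.677 to 0.829, adjusted p = 0.892).

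The arms of miR-26b gave the lowest p of the 12. Per 100000 counts of rno-miR-26b-5p, young AL libraries had 60.9 to 113 counts of its passenger strand rno-miR-26b-3p (median 85.8), old AL libraries 94.96 to 139.8 (median 107), and old CR libraries 63.7 to 98.9 (median 81.4). Of the 6 old CR libraries 5 lay below every old AL library. The log2 ratio was 0.47 lower on average in old CR than in old AL (exact permutation p = 0.00649, adjusted p = 0.0779) and 0.44 higher in old AL than in young AL (exact permutation p = 0.0303, adjusted p = 0.182). Old CR and young AL differed by -0.03 (exact permutation p = 0.855, adjusted p = 0.892). Without old CR replicate 15 the first of these had an adjusted p of 0.026, and without young AL replicate 1 the second had 0.039, in exact permutation tests of the remaining libraries. For each of them it was the only 1 of 12 single removals that passed the correction. rno-miR-26b-3p rested on 26 to 89 counts a library.

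**Figure D3:**
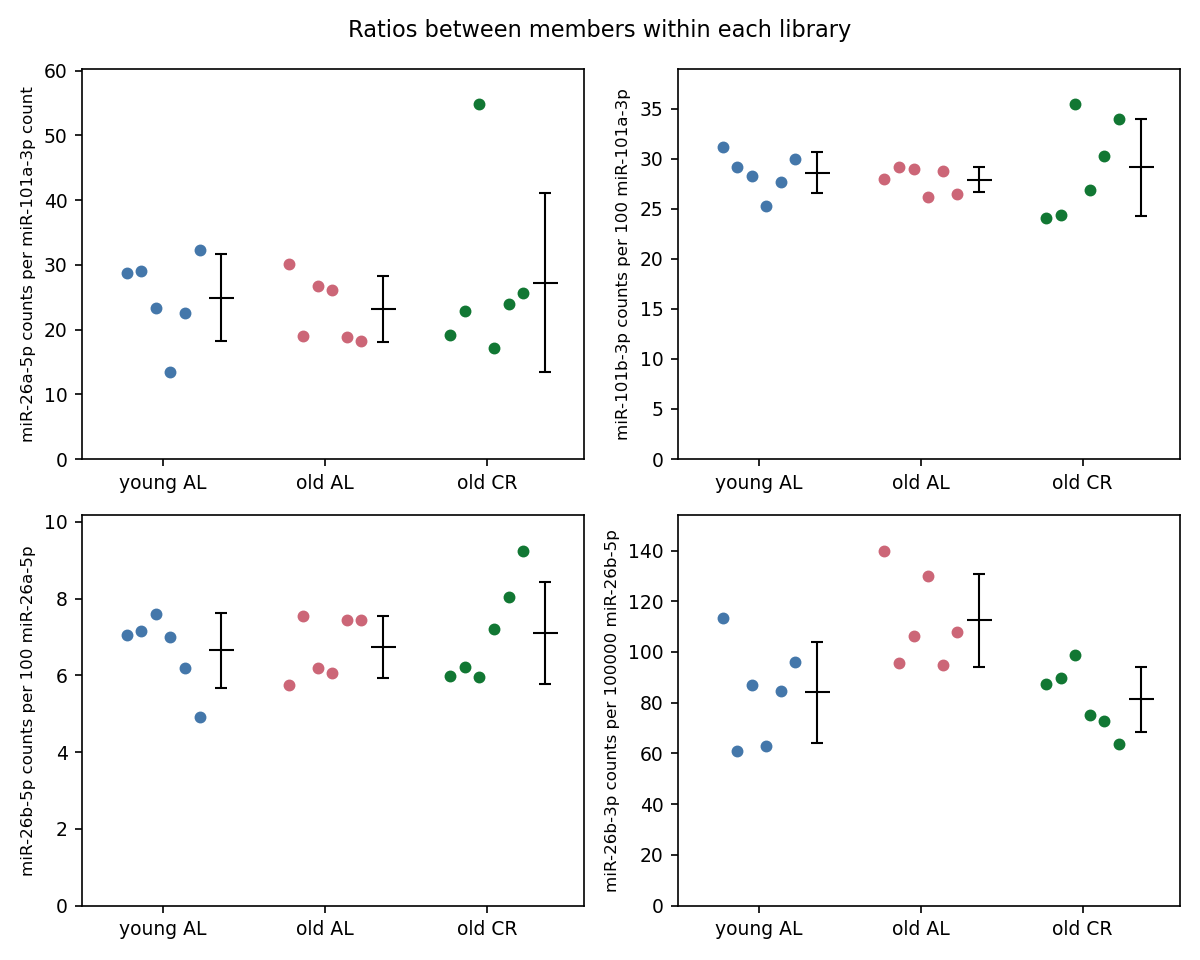
Ratios of counts between members in each library (linear axes from 0), with points as libraries and the mean ± SD of a group beside them (n = 6). Old CR replicate 15 stands alone at 54.8 counts of rno-miR-26a-5p per count of rno-miR-101a-3p, and 5 of 6 old CR libraries lie below all old AL libraries for the miR-26b arms.

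Which miRNAs vary most like these was described by the SD of the log2 ratio over the 18 libraries, among 81 other known miRNAs of at least 100 CPM. rno-miR-101a-3p was closest to rno-miR-101b-3p (SD 0.148), then to rno-miR-7a-5p (0.292) and rno-miR-30b-5p (0.331), where the median miRNA had 0.608. rno-miR-26a-5p was closest to rno-miR-30a-3p (0.166), to its own family member rno-miR-26b-5p (0.214) and to rno-miR-29a-3p (0.220), where the median was 0.379. rno-miR-101a-3p came 58th of 81 in likeness to rno-miR-26a-5p, at 0.444. These values share libraries and are descriptions only. One predicted candidate, number 92, had nearly the counts of rno-miR-26a-5p in 3 libraries, 1 of each group, and 0 in the other 15. In old CR replicate 16 it had 1096886 counts where rno-miR-26a-5p had 1098271, and the 2 entries cannot be taken as separate RNAs.

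The suitability of rno-miR-101a-3p as a reference was examined with the NormFinder stability value, which joins the centred offsets of a miRNA's group means to its spread within groups, both in log2 units, with a lower value for a more stable miRNA. It was computed for the 170 known miRNAs of at least 10 CPM on average. rno-miR-101a-3p had a value of 0.276 and ranked 73 of 170, between rno-miR-99b-5p (0.274) and rno-miR-351-5p (0.278), where the median value was 0.299. rno-miR-26a-5p ranked 2 at 0.135, behind rno-miR-107-3p (0.122) and ahead of rno-miR-103-3p (0.150), rno-miR-151-5p (0.153) and rno-miR-3586-3p (0.153). rno-miR-26b-5p ranked 53 (0.241) and rno-miR-101b-3p 57 (0.246). The order describes these libraries. The study picked its reference on young, old and old CR samples of its own, so the order is not independent evidence. Which miRNAs the study's own ranking compared is not stated.

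The 2 components of the value differed sharply for rno-miR-101a-3p. NormFinder first subtracts from each group mean the average shift of all 170 miRNAs in that group. After this centring the largest group offset of rno-miR-101a-3p was 0.02 log2, the 2nd smallest of the 170, whereas before it the group means were 9.15, 9.24 and 9.30 log2 CPM in young AL, old AL and old CR. Its SD within groups, from values that NormFinder also centres in each library on the 170 miRNAs, was 0.50 log2 and ranked 144th from the smallest. Without that centring its SD of log2 CPM was 0.473, 0.431 and 0.694 in young AL, old AL and old CR. rno-miR-26a-5p had the opposite make-up, with an SD within groups of 0.15 (rank 2) and a centred offset of 0.09 (rank 38). By the SD of log2 CPM over all 18 libraries, ignoring groups, rno-miR-101a-3p ranked 136 of 170 (0.515) and rno-miR-26a-5p 6 (0.2004). With library totals in place of TMM, the SD was 0.400 for rno-miR-101a-3p and 0.290 for rno-miR-26a-5p. Among the 82 miRNAs of at least 100 CPM their NormFinder ranks were 51 and 1. The centred offsets of its group means were thus small beside the differences between single rats, which reached 3.82-fold.

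**Figure D4:**
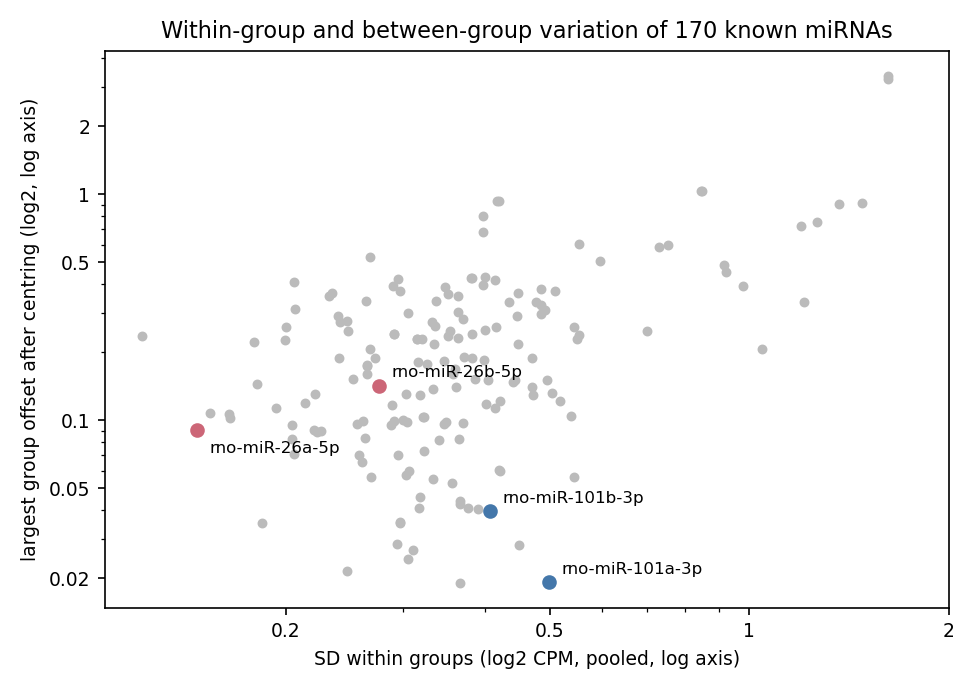
Each point is one of 170 known miRNAs with a mean of at least 10 CPM. The axes are its pooled SD within groups and the largest offset of a group mean, both after NormFinder's centring (log2, logarithmic axes). miR-26 members are in red and miR-101 members in blue. rno-miR-101a-3p lies low and to the right, with a centred offset of 0.02 and a within-group SD of 0.50, and rno-miR-26a-5p far to the left at 0.15.

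To see what such a reference does to other sequenced miRNAs, each library was scaled so that rno-miR-101a-3p had the same level in all. Every entry was then tested again with edgeR. By construction this passes the spread of rno-miR-101a-3p in the counts on to every other entry. The RT-qPCR of the study measured a small set of miRNAs without adjusting p, which this scaling does not reproduce. Whether rno-miR-101a-3p spreads as widely in RT-qPCR was not tested. In old AL against young AL the number called went from 24 under TMM to 3 under rno-miR-101a-3p, all 3 among the 24 (rno-miR-31a-5p, rno-miR-3576 and rno-miR-539-5p). At an unadjusted p under 0.05 it went from 171 to 126. In old CR against young AL it went from 68 to 22, of which 21 were shared, and in old CR against old AL from 2 to 0, with 88 and 50 at an unadjusted p under 0.05. No member was among those called. On the log2 scale the library factors from rno-miR-101a-3p departed from TMM with an SD of 0.52, against 0.20 for factors from rno-miR-26a-5p. By construction these repeat the SDs of log2 CPM over the 18 libraries given above and are no further result.

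Scaling to rno-miR-26a-5p, an alternative added after the data were seen, gave 10, 84 and 0 called entries in the same order of comparisons. Of the 84, 26 were higher and 58 lower in old CR, where TMM called 30 higher and 38 lower. The level of rno-miR-26a-5p in old CR against young AL had an estimate of 0.22 on the log2 scale, so by construction its use lowered the log2 fold changes there, by a median of 0.21. With known miRNAs only, TMM called 53, 94 and 0 entries, rno-miR-26a-5p 36, 105 and 0, and rno-miR-101a-3p 15, 63 and 0.

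The counts called under rno-miR-101a-3p depended on single libraries. Without old AL replicate 7 it was 24 rather than 3 in old AL against young AL, 2 without young AL replicate 3, and 0 without any one of the other 10. In old CR against young AL it was 46 without old CR replicate 15, the library with the least rno-miR-101a-3p, and 28 without young AL replicate 1. It was 0 without young AL replicate 2, 3 or 5, 3 without young AL replicate 6, 4 without old CR replicate 14 or 18, 6 without old CR replicate 17 and 13 without young AL replicate 4. In old CR against old AL it was 1 without old CR replicate 15 and 0 without any other library. The numbers called under TMM or rno-miR-26a-5p were not recomputed with a library left out. Whether they depend less on single libraries was therefore not tested.

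**Figure D5:**
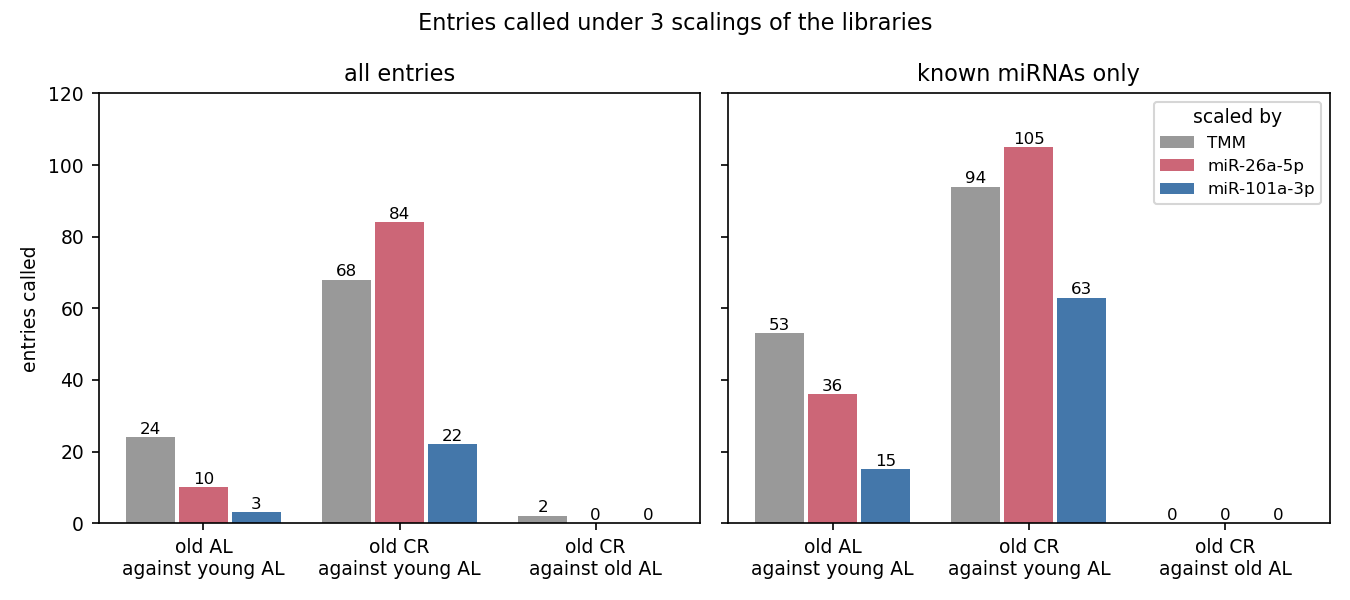
Number of entries called by edgeR in each comparison when libraries were scaled by TMM, by rno-miR-26a-5p or by rno-miR-101a-3p, over all entries and over known miRNAs only (bars from 0, value above each). In both comparisons with young AL the rno-miR-101a-3p bar is the lowest, at 3 and 22 for all entries and 15 and 63 for known miRNAs.

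Other miRNAs reported to target Ezh2 were read beside the 2 families, and all 11 of the list were tested. edgeR called 0 of the 11 in old AL against young AL, where 3.28% of all tested entries were called, 1 in old CR against young AL (9.32% of entries) and 0 in old CR against old AL (0.272%). At an unadjusted p under 0.05 there were 1, 1 and 3 of the 11, beside 23.4%, 25.5% and 12.0% of entries. The median log2 fold change of the list was 0.06, 0.17 and 0.19 in that order, beside 0.06, 0.08 and 0.01 over all tested entries.

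The 1 called was rno-miR-124-3p, a miRNA of neurons. Young AL libraries held 0.163 to 0.924 CPM of it, old AL libraries 0.577 to 2.37 and old CR libraries 0.912 to 9.11, and all 3 groups overlapped. Its log2 fold change in old CR against young AL was 2.74 (SE 0.614, edgeR adjusted p = 0.0173), and against old AL 1.32 (SE 0.566, edgeR adjusted p = 0.392). The summed level of the 4 nerve miRNAs stood in the same order, with medians for young AL, old AL and old CR of 13.0, 24.2 and 46.4 CPM and ranges of 7.27 to 21.7, 11.4 to 35.4 and 19.3 to 149. Of the 4, which include rno-miR-124-3p itself, 2 were called in old CR against young AL, where 9.32% of tested entries were. The other one was rno-miR-9a-5p, which makes up most of the sum and ranged from 6.59 to 137 CPM over the 18 libraries, while rno-miR-219a-5p reached at most 0.113 CPM. The part of nerve RNA in the change of rno-miR-124-3p was not tested.

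No abundant member of the list passed the test in any comparison. rno-let-7a-5p, a repressor of growth and cell-cycle genes, had 1376 ± 365, 1447 ± 210 and 1556 ± 392 CPM (SD, n = 6) in young AL, old AL and old CR. rno-miR-30d-5p had 5126 ± 1106, 3897 ± 678 and 5023 ± 179 CPM, and its log2 fold change of 0.37 in old CR against old AL was among the 3 with an unadjusted p under 0.05 (edgeR adjusted p = 0.392). rno-let-7c-5p had 1802 ± 174 CPM in old AL and 2174 ± 271 in old CR (edgeR adjusted p = 0.392). rno-miR-144-3p, which shares bases 2 to 7 with miR-101-3p, had 0.576 ± 0.311, 0.440 ± 0.180 and 0.377 ± 0.278 CPM, far below the 764 ± 273, 798 ± 210 and 875 ± 325 CPM summed over the 2 miR-101-3p arms.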

How the data were processed

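Small RNA of gastrocnemius muscle was sequenced by the authors in 18 libraries, 6 for each of young AL, old AL and old CR. Per the methods and the submitters' processing notes, reads were trimmed with Cutadapt 1.2.1 and Sickle, reads under 12 nt were dropped, Bowtie2 2.4.0 and Rnor_6.0 are named, and miRNAs were identified with miRDeep2. The authors deposited raw counts per miRNA and library, which are not normalised (34940346 to 83110905 per library). Not given in the sources used here are the miRBase release and the treatment of reads that match more than 1 miRNA. All columns were matched to samples (0 unused).

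Each pair of groups was fitted with edgeR 4.0.16 in R 4.3.3 (quasi-likelihood test, robust, two-sided) on entries with at least 10 counts, with TMM factors and Benjamini-Hochberg adjustment over all tested entries. Calls needed an adjusted p of 0.05 or less together with a 1.5-fold difference. The SE is the log2 fold change over the square root of F. DESeq2 1.42.0, the tool of the study, was an alternative. Ratios had 0.5 added to each count. Replicates differed far beyond counting noise (lowest chi-square 982 per degree of freedom), and labels give no batch, though library numbers of young AL replicates 1 and 2 (19 and 20) stand apart. Statistics were tested on simulated data. NormFinder values were computed from its published formulas on log2 CPM.

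Named were all members, entries matching a member's counts within 10% or 2 counts, entries sharing bases 2 to 7, 11 miRNAs reported to target Ezh2, the 5 lowest NormFinder values, the neighbours of rno-miR-101a-3p in that order, and the 3 miRNAs most like rno-miR-101a-3p or rno-miR-26a-5p. The members, lists and tests were chosen with earlier results of these data known. Alternatives were other scalings, filters, known miRNAs only, no robust estimation, DESeq2, medians, and each library left out. Sequences and gene positions are from RefSeq (GRCr8).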

Additional observations from a re-analysis of the deposited data

Results flagged for a closer look

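Of 30 group values tested for a library far from the rest of its group of 6, 1 stood out, and about 1 in 20 does so by chance. The log2 ratio of rno-miR-26a-5p to rno-miR-101a-3p was 5.78 in old CR replicate 15, its gap to the next library being 0.652 of the whole range of the group, above Dixon's critical value for 6 libraries. This library had the fewest counts of rno-miR-101a-3p of the 18, 14717, in a total of 47142870. Its rno-miR-26a-5p level, 14712 CPM, lay inside the range of each group.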

How the results depend on the processing

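No member was called in any of the 74 alternatives, counted over the 3 comparisons. These were repeated fits, or the reported fit read by adjusted p without the fold limit. Of 489 member fold changes recomputed, 458 kept their direction and 31 reversed, and none became a call. In old AL against young AL, the log2 fold change was, scaled to rno-miR-101a-3p, -0.034 for rno-miR-101b-3p, -0.10 for rno-miR-26a-5p and -0.095 for rno-miR-26b-5p. With filterByExpr these were -0.0065, -0.034 and -0.022. Without young AL libraries 19 and 20, rno-miR-101a-3p stood at -0.035 and rno-miR-101b-3p at -0.0040. In old CR against young AL, rno-miR-101a-3p was at -0.024 with library totals and rno-miR-101a-5p at -0.063 scaled to rno-miR-101a-3p. In old CR against old AL, upper-quartile factors gave -0.00084 for rno-miR-101a-3p, -0.011 for rno-miR-101b-3p and -0.046 for rno-miR-26a-3p (too few counts for its size to be read), and library totals -0.087, -0.051 and, for rno-miR-26a-5p, -0.013. The cause of these reversals was not tested.

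With 1 library left out at a time, rno-miR-101a-3p stood at -0.013 to 0.28, 0.060 to 0.42 and 0.0017 to 0.30 in old AL against young AL, old CR against young AL and old CR against old AL. In the first of these, rno-miR-101b-3p stood at -0.010 to 0.22, rno-miR-26a-5p at -0.047 to 0.085 and rno-miR-26b-5p at -0.0499 to 0.12, in the second rno-miR-101a-5p at -0.04998 to 0.44, and in the third rno-miR-26a-3p at -0.26 to 0.4988. In the same order of comparisons, log2 ratios differed by -0.067 to -0.0069, -0.045 to 0.067 and -0.013 to 0.099 (rno-miR-101b-3p to rno-miR-101a-3p), by -0.25 to 0.0075, -0.16 to 0.18 and -0.078 to 0.26 (rno-miR-26a-5p to rno-miR-101a-3p), by -0.060 to 0.069, 0.0050 to 0.14 and -0.015 to 0.11 (rno-miR-26b-5p to rno-miR-26a-5p), and by 0.35 to 0.53, -0.12 to 0.062 and -0.53 to -0.40 (miR-26b arms). Of 176 ratio alternatives, 2 passed the correction (miR-26b arms) and 24 reversed. Differences of medians were -0.049, -0.069 and -0.020 for rno-miR-26b-5p to rno-miR-26a-5p, and in old CR against young AL -0.0097 for rno-miR-101b-3p and -0.15 for rno-miR-26a-5p, each to rno-miR-101a-3p. Without libraries 19 and 20 these last 2 were 0.0074 and 0.057 in old AL against young AL.

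Entries called with counts scaled to rno-miR-101a-3p numbered 3, 22 and 0. TMM gave 24, 68 and 2, scaling to rno-miR-26a-5p 10 and 84, and no robust estimation 0 in the first. Known miRNAs only gave 15 and 63, with TMM 53 and 94 and scaled to rno-miR-26a-5p 36 and 105. With a library left out the ranges under rno-miR-101a-3p were 0 to 24, 0 to 46 and 0 to 1. The NormFinder rank of rno-miR-101a-3p was 75 to 91 with a library left out 136 by SD, 51 of 82 with a minimum of 100 CPM and 94 of 321 with a minimum of 1 CPM. That of rno-miR-26a-5p was 1 to 5 with a library left out, 6 by SD, and 1 or 5 with a minimum of 100 or 1 CPM. No paired analysis was possible because the groups share no replicate numbers. The rare arms are limited by depth, since 3 counts, the most that a count of 0 allows, are 0.0286 to 0.0898 CPM, counting error only.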
